A study of Mus musculus with 11 samples.

Results

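The genes described here are 8 lipid genes of the mouse, Tlcd4, Mboat2, Plpp1, Sphk1, Mfsd2b, Paqr9, Sec14l2 and St3gal6, out of 19933 genes named on the arrays. They were grouped because of large increases in signal along erythroid maturation, so their values over the stages are a description and were not tested. The data went against that grouping for 1 of the 8: Mfsd2b was lower, not higher, at each later stage in every genotype. Several of the 8 are carriers or membrane proteins and not established enzymes, so they are called lipid genes here. All 8 were found, each as 1 probe set with no other gene symbol.

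RNA was measured on 11 single-colour Affymetrix arrays of cells sorted from C57Bl/6 mice at steady state. The mice were KO (Zbtb46 gfp/gfp), Het (Zbtb46 gfp/+) or WT (Zbtb46+/+), where Zbtb46 is a zinc finger transcription factor gene carrying a gfp insertion. Bone marrow of each genotype gave 3 progenitor stages, all Lin-, CD117+, CD41- and CD16/32-. They were Pre MegE (CD150+ CD105-), Pre CFU-E (CD150+ but CD105lo) and, last, CFU-E (CD150- CD105+), while spleens of KO and WT mice gave CD4+ dendritic cells (DC). Each group held 1 array, so the 3 genotypes were the only replication of a stage. The labels give no age, sex or pooling of the mice and do not tell if 1 animal served for several stages, so spreads and p-values measure differences between these arrays. Fewer transcripts per cell and fewer cells that make a transcript cannot be told apart in such sorted bulk samples.

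Pre MegE cells can give rise to both platelet-forming and red cells, Pre CFU-E cells are restricted towards red cells, and CFU-E are the progenitors just before the first recognisable erythroblasts. Maturing red cells rebuild their membrane, and red cells are a main source of plasma sphingosine-1-phosphate (S1P), a signalling lipid that guides the exit of lymphocytes from tissues. Sphk1 makes S1P by phosphorylating sphingosine, Mfsd2b exports it from red cells and platelets, and the lyase Sgpl1 breaks it down. Mboat2 attaches fatty acids to lysophospholipids, and Plpp1 removes phosphate from lipid phosphates such as phosphatidic acid. St3gal6 adds sialic acid to the ends of sugar chains on proteins and lipids, Sec14l2 is a lipid carrier that binds tocopherol, Paqr9 belongs to the family of progestin and adiponectin receptors, and Tlcd4 is a membrane protein with the domain that it shares with ceramide synthases.

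Promoter windows of RefSeq (assembly GRCm38.p6), the 250 bases before an annotated transcript start on the gene's strand, were held for 6 of the 8 genes, with 12 windows in all. Plpp1 and Paqr9 had none. The windows of 4 genes are printed because these genes moved in different ways: Tlcd4 had the largest increase, Mboat2 and Sphk1 gained mostly at the first step, and Mfsd2b decreased. Capitals mark matches, on either strand, to GATAA, the core of the GATA factor site, to CCNCNCCC, a pattern shared by CACCC boxes of erythroid Kruppel-like factors and by GC boxes, and to CACGTG, the palindromic E-box.
Tlcd4, number 1 of 2 windows, chr3:121263341-121263590, minus strand: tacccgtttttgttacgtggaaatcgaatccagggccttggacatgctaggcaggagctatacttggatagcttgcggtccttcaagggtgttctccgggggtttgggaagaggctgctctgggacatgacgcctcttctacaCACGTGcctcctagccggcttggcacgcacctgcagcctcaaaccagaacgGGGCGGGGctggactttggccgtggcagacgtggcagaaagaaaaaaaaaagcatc
Mboat2, chr12:24831349-24831598, plus strand: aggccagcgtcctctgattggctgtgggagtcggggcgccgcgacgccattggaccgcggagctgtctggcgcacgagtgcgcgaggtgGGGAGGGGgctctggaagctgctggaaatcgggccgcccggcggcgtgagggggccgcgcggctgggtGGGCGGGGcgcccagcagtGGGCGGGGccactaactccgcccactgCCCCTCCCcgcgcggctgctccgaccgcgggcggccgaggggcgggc
Sphk1, number 4 of 5 windows, chr11:116532194-116532443, plus strand: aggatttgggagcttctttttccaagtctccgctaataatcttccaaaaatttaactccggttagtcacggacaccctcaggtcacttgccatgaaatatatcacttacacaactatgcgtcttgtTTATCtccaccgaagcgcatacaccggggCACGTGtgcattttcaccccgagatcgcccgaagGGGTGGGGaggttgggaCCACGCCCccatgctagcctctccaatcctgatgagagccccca
Mfsd2b, chr12:4874360-4874609, minus strand: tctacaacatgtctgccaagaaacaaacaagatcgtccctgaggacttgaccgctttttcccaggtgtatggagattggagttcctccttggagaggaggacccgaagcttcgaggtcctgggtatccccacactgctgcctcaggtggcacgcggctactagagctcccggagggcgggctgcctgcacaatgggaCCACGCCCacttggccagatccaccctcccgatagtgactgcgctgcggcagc

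GATAA occurred in 3 of the 12 windows, 2 of them overlapping windows of Sphk1 and 1 of St3gal6, against 22.6% of the 32851 windows of all genes. CCNCNCCC occurred in 11 of the 12 windows, against 45.9% of all windows. It was in at least 1 window of each of the 6 genes, for which no share over all genes was counted. Of the 12 windows 5 were of Sphk1 alone, so nothing is read from these counts. The form CCACACCC of this pattern was in no window of these genes. CACGTG occurred in 3 windows, 1 of Tlcd4 and 2 of Sphk1 that overlap, against 6.02% of all windows. Some windows of 1 gene overlap, so they are not separate observations. Mfsd2b, which decreased over the stages, carried 1 CCNCNCCC match, and the printed Mboat2 window carried 4.

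The arrays were close in overall signal, with median intensities of 198.6 to 218.4 in progenitors and of 199.2 in KO DC and 195.7 in WT DC. Zbtb46 read 7.71, 7.67 and 7.52 in KO, Het and WT cells of the Pre MegE stage, 7.70, 8.30 and 8.14 at Pre CFU-E, then 7.50, 8.62 and 8.87 at CFU-E, all as log2 intensity. The stage labels were checked with 12 measured erythroid markers. Their summed intensity ran from 29645 to 30306 at Pre MegE, then 47277 to 48213 at Pre CFU-E, then lastly 60548 to 60930 in CFU-E. Car1 was the highest of them (log2 13.82 to 13.87 at Pre MegE) and weighs most in the sum. At the first step Alas2 went down (7.86 to 7.89, then 7.62 to 7.68), as did Slc4a1 (8.26 to 8.57, then 8.14 to 8.22). The other erythroid markers went up at that step, and Alas2 and Slc4a1 were higher at CFU-E. Sums of 7 megakaryocyte markers were 7971 to 8392, 2212 to 2375 and 1827 to 1941 at the same stages, and sums of 8 stem and multipotent progenitor markers were 11474 to 12907, 2106 to 2179 and 1163 to 1270. Sums of 8 granulocyte and monocyte progenitor markers were 21600 to 25154, 11220 to 14003 and 9970 to 12813, so signal of that lineage was measured at every stage. Sums of 9 macrophage markers were 2332 to 2629, 3190 to 3214 and 3732 to 3961, where Slc40a1, the iron exporter that red cell precursors also make, went up (9.50 to 9.59, 10.71 to 10.82 and 11.17 to 11.34) and Cd68 was above the array median throughout. Of the other macrophage markers, C1qa, C1qb, C1qc, Adgre1 and Mertk lay below the array median on every progenitor array. Vcam1 was at or above it on every Pre MegE array (7.92 to 8.45) but not on every later array. Hmox1 read 7.72 to 8.05 at Pre MegE and reached the median on only some arrays of that stage. All 12 classical DC markers lay at or above the array median in both DC arrays. So did all 9 macrophage markers, with sums of 19024 to 22813 in DC, and Adgre1 read 12.33 to 12.39 there. The part of macrophage signal in the DC values was not tested. Eng, which encodes the CD105 of the gates, did not follow its protein, with log2 intensities of 11.78 to 11.81, 11.69 to 11.77 and 11.76 to 11.84 at the 3 stages. These marker sums moved together with the lipid genes over the stages, and their part in the values below was not tested.

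Between Pre MegE and CFU-E, the span, 7 of the 8 genes were higher at CFU-E, by 2.02 to 5.08 on the log2 scale, and Mfsd2b was lower. The values of the 3 CFU-E arrays and the 3 Pre MegE arrays did not overlap for any of the 8. The share of all genes without such overlap was not counted, so nothing is read from this. By another measure, 76.6% of 10701 genes were called between these stages. A gene is called here when its adjusted p is under 0.05 in a limma fit over the 9 progenitor arrays. Ranked by increase among the 10701 genes, Tlcd4 stood in position 1, Mboat2 in 4, Plpp1 in 5, Paqr9 in 6, Sphk1 in 11, St3gal6 in 32, Sec14l2 in 72 and Mfsd2b in 9661. The next gene after Sec14l2, Agpat3, had the same increase of 2.02. The members were thus picked from near the top of the order, Mfsd2b excepted, and these positions carry no support of their own.

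**Figure D1:**
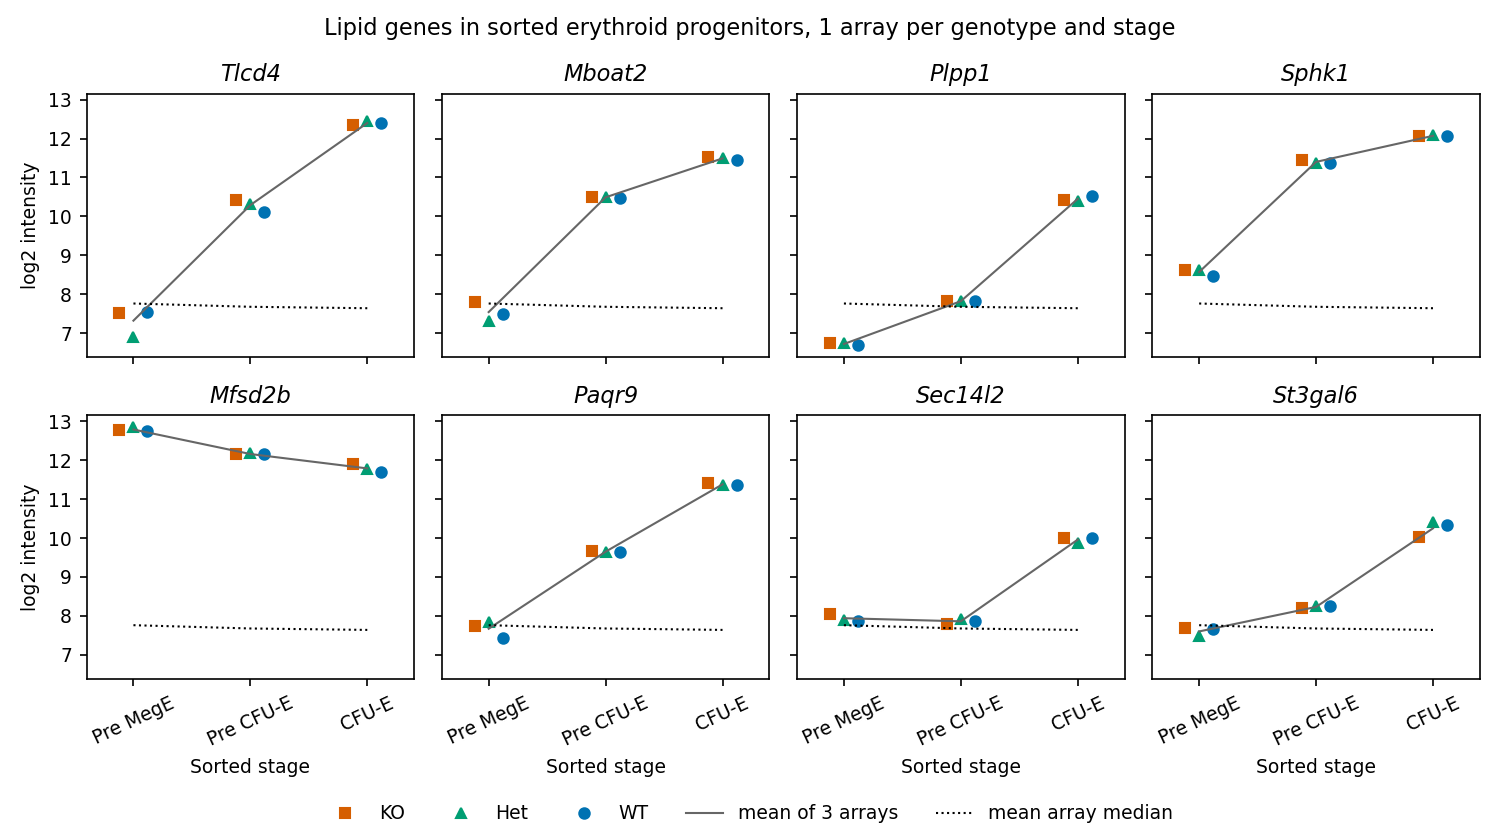
Log2 intensity of the 8 lipid genes (1 panel each) in KO, Het and WT cells at the 3 stages, with 1 point per array. Tlcd4 reached 12.36 to 12.44 at CFU-E, and Mfsd2b is the 1 gene whose points go down, to 11.71 to 11.90.

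The increase fell at different steps in different genes. The first step, Pre CFU-E against Pre MegE, held 80.9% of the log2 increase of Sphk1, 74.7% of Mboat2, 58.3% of Tlcd4, 53.4% of Paqr9, 29.5% of Plpp1 and 23.9% of St3gal6. Sec14l2 had no increase at that step. The genes thus ran from an early pattern in Sphk1 and Mboat2, through an even one in Tlcd4 and Paqr9, to a late one in Plpp1, St3gal6 and Sec14l2. The late genes lay below or not far above the array median at Pre MegE and Pre CFU-E. Their means there were 6.72 and 7.82 for Plpp1, 7.60 and 8.23 for St3gal6, and 7.94 and 7.86 for Sec14l2. Tlcd4, Mboat2 and Paqr9 were near or below the median at Pre MegE. Signals that low limit how well a step and its share are known.

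**Figure D2:**
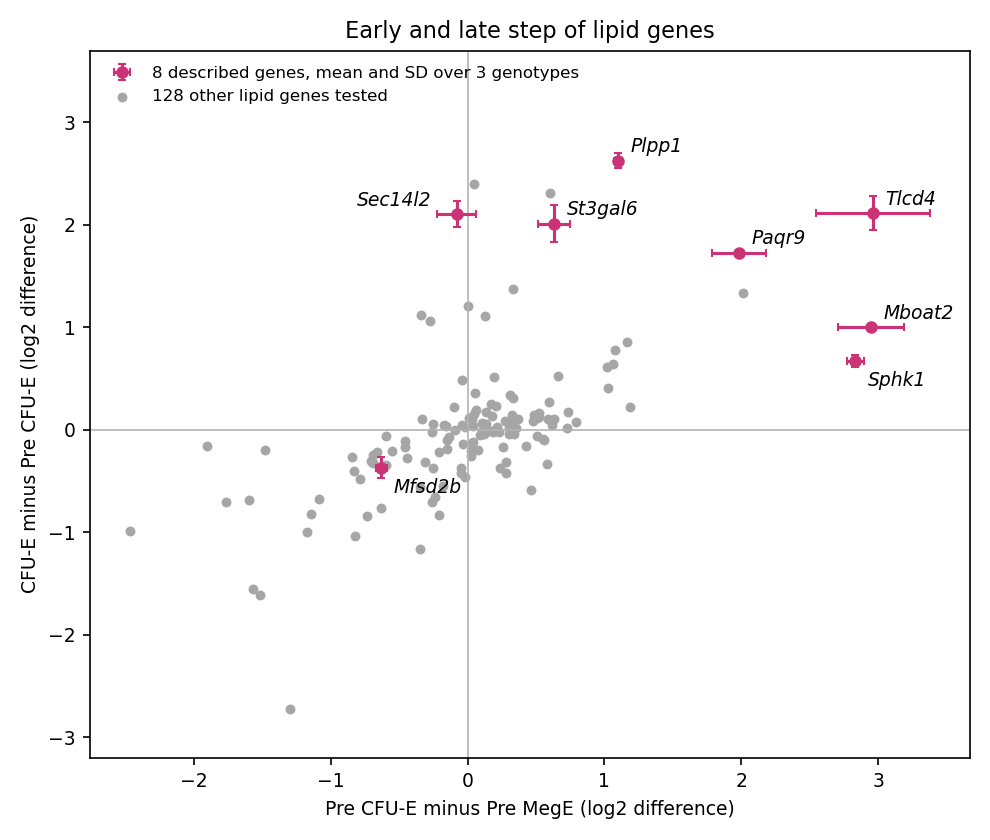
Mean log2 difference at the first step (Pre CFU-E minus Pre MegE, horizontal) and the second step (CFU-E minus Pre CFU-E, vertical) for the 8 lipid genes and 128 other lipid-related genes, each averaged over 3 genotypes. Sphk1 lies far right at 2.83 and 0.67, Plpp1 high at 1.10 and 2.63, and Tlcd4 far out on both axes at 2.96 and 2.12.

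S1P metabolism held the gene with the largest early share of its increase, Sphk1, and the 1 decrease, Mfsd2b. Sphk1 had log2 intensities of 8.61, 8.61 and 8.48 at Pre MegE in KO, Het and WT cells, 11.46, 11.37 and 11.36 at Pre CFU-E, then 12.07, 12.08 and 12.06 at CFU-E. All 3 genotypes were high from Pre CFU-E on, and no value of one stage reached into the next. The first step was 2.83 ± 0.062 (SD, n = 3 genotypes, 7.12-fold) and the second 0.67 ± 0.059 (1.59-fold), which gives 3.50 ± 0.067 over the span (11.3-fold). Sphk1 was at or above the array median on 9 of 9 progenitor arrays, so its low end at Pre MegE was a measured level. Its gene lies on chromosome 11 at 116530836 to 116536675.

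The exporter went the other way. Mfsd2b had log2 intensities of 12.78, 12.85 and 12.74 at Pre MegE in KO, Het and WT cells, 12.15, 12.18 and 12.16 at Pre CFU-E, then 11.90, 11.77 and 11.71 at CFU-E. It was at or above the array median in all 9 and highest at the first stage, with no overlap between stages. The steps were -0.63 ± 0.043 and -0.37 ± 0.10 (SD, n = 3), a difference of -1.0 ± 0.11 over the span, or 2.0-fold lower at CFU-E. Summed megakaryocyte, granulocyte and stem cell marker signal was also lower at CFU-E than at Pre MegE, while erythroid and macrophage sums were higher, as given above. Of all genes, 35.1% were called lower over the span. The part of other cells in the Mfsd2b values was not tested. Mfsd2b lies on chromosome 12 at 4862438 to 4874359.

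The other genes of sphingolipid and S1P metabolism were read from a list of 45, of which 33 entered the fit. From Pre MegE to CFU-E 11 rose and 17 fell, against a background in which 41.5% of all genes were called higher and 35.1% lower. Their median difference was -0.224, against 0.05 over all genes, and 2 rose and 11 fell by at least 2-fold. After centring each array on its median, the median over all genes was 0.171 instead of 0.05. That shift applies to all span values given here. This list and those below were drawn up with earlier results of these data known. Their p-values and counts thus describe the genes and carry no support of their own.

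The lyase Sgpl1, which degrades S1P, had log2 intensities of 8.77, 8.72 and 8.59 at Pre MegE in KO, Het and WT cells, 8.73, 8.86 and 8.86 at Pre CFU-E, then 10, 9.83 and 9.95 at CFU-E. It differed by 0.13 at the first step (SE 0.070, limma adjusted p = 0.14), rose by 1.11 at the second (adjusted p = 2.51e-06) and rose by 1.24 over the span (SE 0.070, adjusted p = 2.23e-07). The first step was called as a rise after median centring (0.21, adjusted p = 0.0234) and after quantile normalization (0.19, adjusted p = 0.0311). Acer3, an alkaline ceramidase that releases sphingosine, rose by 1.18, and Ormdl3, a brake on the first enzyme of sphingolipid synthesis, by 0.71. Sphk2, the other sphingosine kinase, rose by 0.18 (SE 0.062, adjusted p = 0.0257), against the untested 3.50 of Sphk1. The largest falls of the list were in the S1P receptor S1pr1, the exporter Spns2 and the neutral sphingomyelinase Smpd2.

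S1pr1 had log2 intensities of 10.10, 10.38 and 10.33 at Pre MegE in KO, Het and WT cells, 7.68, 7.87 and 7.87 at Pre CFU-E, then 6.83, 6.79 and 6.86 at CFU-E. It fell by 3.45 (SE 0.063, 10.9-fold, adjusted p = 2.66e-10), and its CFU-E values lay below the array medians. Spns2, the S1P exporter of endothelial cells, had 11.75, 11.70 and 11.65 at Pre MegE, 10.08, 10.31 and 10.16 at Pre CFU-E, then 8.66, 8.57 and 8.50 at CFU-E in the same order. It fell by 3.13 (SE 0.065, 8.73-fold, adjusted p = 4.45e-10), about evenly over both steps. Spns3, a relative of Spns2, fell by 3.12, while Spns1, the lysosomal member of that family, rose by 0.21 (SE 0.062, adjusted p = 0.0107). Smpd2 fell by 2.47. Among genes chosen after their values were seen, the phosphatase Sgpp1 rose by 0.66 and the receptor S1pr4 fell by 1.51.

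**Figure D3:**
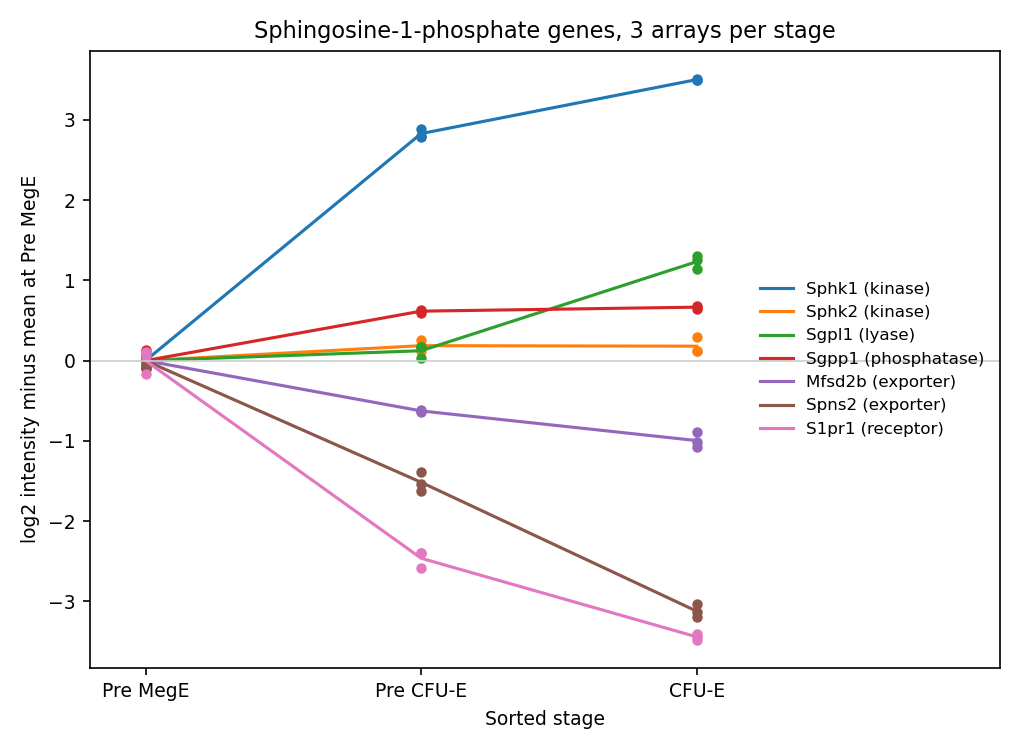
Log2 intensity relative to each gene's mean at Pre MegE, by stage, for genes of S1P metabolism, export and reception, with 1 point per array. Sphk1 ends 3.50 above its start and Sgpl1 1.24 above, while Mfsd2b ends at -1.0, Spns2 at -3.13 and S1pr1 at -3.45.

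Among genes of glycerophospholipid metabolism, Mboat2 gained early and Plpp1 late. Mboat2 had log2 intensities of 7.81, 7.32 and 7.49 at Pre MegE in KO, Het and WT cells, 10.50, 10.50 and 10.46 at Pre CFU-E, then 11.53, 11.49 and 11.45 at CFU-E. Its level was near the array median at Pre MegE, where 1 of 3 arrays reached it, and clearly above it later in every genotype. The first step was 2.95 ± 0.24 (SD, n = 3, 7.72-fold) and the second 1.0 ± 0.024 (2.0-fold), with 3.95 ± 0.22 over the span (15.4-fold). Mboat2 lies on chromosome 12 at 24831435 to 24964400.

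Plpp1 had log2 intensities of 6.74, 6.74 and 6.69 at Pre MegE in KO, Het and WT cells, 7.82 in each genotype at Pre CFU-E, then 10.42, 10.39 and 10.53 at CFU-E. It lay below the array median on all 3 Pre MegE arrays, so its fold from that stage may be understated. The steps were 1.10 ± 0.031 (2.14-fold) and 2.63 ± 0.072 (6.18-fold), with 3.72 ± 0.10 over the span (SD, n = 3, 13.2-fold). Plpp1 lies on chromosome 13 at 112800777 to 112867894.

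The 3 Pre CFU-E values of Plpp1 were identical as deposited, and the SD of 0 there is no measure of precision. At that stage 18.7% of all 19933 genes had the same deposited value in 2 or 3 genotypes, against 9.3% at Pre MegE and 9.8% at CFU-E. Besides Plpp1, Mboat2, Paqr9 and St3gal6 had such a pair at Pre CFU-E, then none of the 8 had one at the other stages. The median SD between genotypes over the 8 genes was 0.096 for Pre MegE, 0.023 for Pre CFU-E and 0.056 for CFU-E arrays. How identical values arose was not tested.

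Of 38 other genes of glycerophospholipid assembly and remodelling in the fit, 18 rose and 15 fell over the span, shares near those of all genes (41.5% higher and 35.1% lower), with a median difference of 0.124. The acyltransferase Agpat3, which makes phosphatidic acid from its lyso form, rose by 2.02 (SE 0.047, adjusted p = 7.33e-10). Pcyt1a, the rate-limiting enzyme of phosphatidylcholine synthesis, rose by 1.86, and Lpcat1, which reacylates lysophosphatidylcholine, by 1.70. The largest falls were in the acyltransferases Lpgat1 (-1.96) and Lpcat2 (-1.68) and in Dgat1 (-1.40), which makes triglyceride. Among the nearest relatives of Mboat2, Mboat1 fell by 1.27 (SE 0.079, adjusted p = 4.29e-07) and Mboat7, which acylates lysophosphatidylinositol, by 0.62 (SE 0.065, adjusted p = 1.51e-05).

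The relatives of Plpp1 moved little. Plpp5 rose by 0.41 (SE 0.064, adjusted p = 0.000275) and Plpp6 fell by 0.42 (SE 0.056, adjusted p = 8.55e-05). Plpp2 (-0.14) and Plpp7 (-0.25) fell by less, and both calls were lost once each array was centred on its median (adjusted p = 0.78 and 0.144), that of Plpp7 also after quantile normalization (0.546).

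Tlcd4 had the largest increase over the span among the 10701 genes of the fit. It had log2 intensities of 7.51, 6.91 and 7.55 at Pre MegE in KO, Het and WT cells, 10.42, 10.31 and 10.12 at Pre CFU-E, then 12.36, 12.44 and 12.40 at CFU-E. The 3 genotypes lay below the array median and were most spread at Pre MegE, with Het lowest, and drew close at CFU-E. The steps were 2.96 ± 0.42 (7.80-fold) and 2.12 ± 0.17 (4.34-fold), with 5.08 ± 0.39 over the span (SD, n = 3, 33.8-fold). Tlcd4 lies on chromosome 3 at 121202008 to 121283108. Of its relatives, Tlcd1 rose by 1.41 (SE 0.056, adjusted p = 1.93e-08), Tlcd3a by 0.32 and Tlcd2 by 0.19 (SE 0.055, adjusted p = 0.00987).

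Tlcd1 had most of its rise at the first step, with log2 intensities of 8.93, 8.86 and 9.03 at Pre MegE in KO, Het and WT cells, 10.17, 10.12 and 10.10 at Pre CFU-E, then 10.32, 10.39 and 10.35 at CFU-E. Tlcd4, by contrast, gained a further 2.12 at the second step.

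Paqr9 gained about equally at both steps. It had log2 intensities of 7.73, 7.83 and 7.44 at Pre MegE in KO, Het and WT cells, 9.67, 9.64 and 9.64 at Pre CFU-E, then 11.41, 11.36 and 11.37 at CFU-E. At Pre MegE 1 of 3 arrays reached the array median, and from Pre CFU-E on all did. The steps were 1.98 ± 0.19 (3.95-fold) and 1.73 ± 0.0052 (3.32-fold), with 3.71 ± 0.20 over the span (SD, n = 3, 13.1-fold). The gene lies on chromosome 9 at 95559634 to 95568022. Its relatives moved less: Paqr4 rose by 0.30 and Paqr6 by 0.25, while Paqr8, a membrane progestin receptor, fell by 0.88 (SE 0.066, adjusted p = 1.5e-06). The adiponectin receptors Adipor1 (-0.28) and Adipor2 (-0.72) fell too.

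Sec14l2 stayed level until Pre CFU-E and was high only at CFU-E. It had log2 intensities of 8.04, 7.90 and 7.87 at Pre MegE in KO, Het and WT cells, 7.79, 7.91 and 7.86 at Pre CFU-E, then 10.01, 9.88 and 9.99 at CFU-E. The first 2 stages overlapped, and every CFU-E array lay above both. Sec14l2 was at or above the array median on all 9 progenitor arrays, but only by a little at the first 2 stages. The steps were -0.08 ± 0.14 and 2.10 ± 0.13 (4.30-fold), with 2.02 ± 0.082 over the span (SD, n = 3, 4.07-fold). Sec14l2 lies on chromosome 11 at 4097039 to 4118729. Its relative Sec14l1 rose by 0.17 (SE 0.047, adjusted p = 0.00821).

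**Figure D4:**
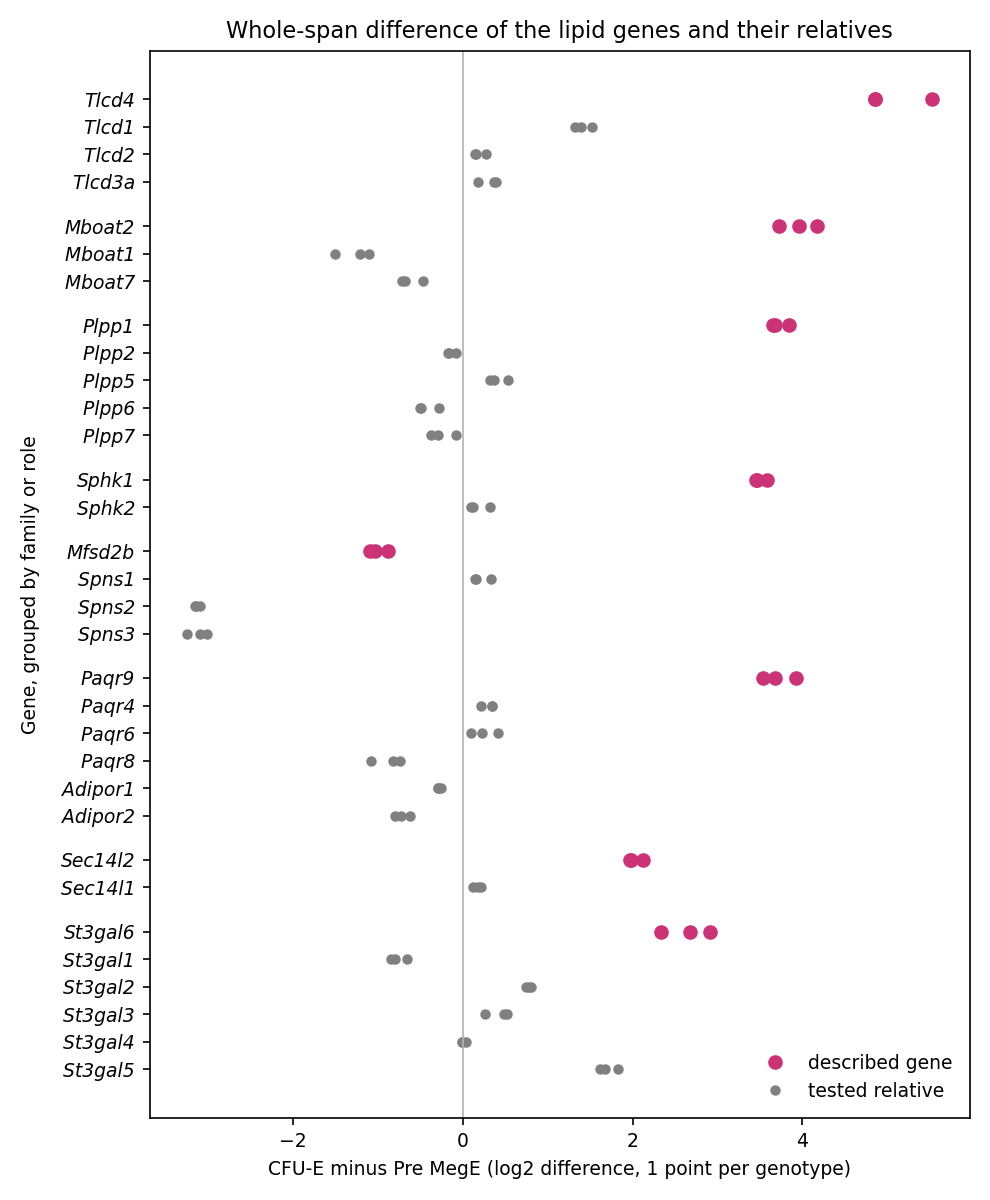
Log2 difference of CFU-E minus Pre MegE for each of the 8 lipid genes and for its measured relatives, by family. Points are single genotypes. Means over the 3 genotypes lie between 2.02 and 5.08 for members other than Mfsd2b, and between -3.13 (Spns2) and 1.71 (St3gal5) for the relatives.

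St3gal6, a gene of sialylation, gained mostly at the second step. It had log2 intensities of 7.68, 7.48 and 7.65 at Pre MegE in KO, Het and WT cells, 8.21, 8.25 and 8.25 at Pre CFU-E, then 10.02, 10.40 and 10.33 at CFU-E. All Pre MegE values lay below the array median, and the KO array was the lowest of the 3 at CFU-E. The steps were 0.63 ± 0.12 (1.55-fold) and 2.01 ± 0.18 (4.04-fold), with 2.65 ± 0.29 over the span (SD, n = 3, 6.26-fold). St3gal6 lies on chromosome 16 at 58469742 to 58524260.

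Its nearest relative in direction, St3gal5, the synthase of the ganglioside GM3, had most of its rise at the first step. St3gal5 had log2 intensities of 9.34, 9.46 and 9.48 at Pre MegE in KO, Het and WT cells, 10.49, 10.48 and 10.49 at Pre CFU-E, then 11.17, 11.14 and 11.10 at CFU-E. It rose by 1.71 over the span (SE 0.052, adjusted p = 3.95e-09). St3gal2 was late like St3gal6: it fell by 0.34 at the first step (adjusted p = 0.000256), rose by 1.12 at the second (adjusted p = 3.11e-07) and rose by 0.78 over the span. St3gal3 rose by 0.42, St3gal1 fell by 0.76, and St3gal4 differed by 0.01 (SE 0.044, adjusted p = 0.863; after median centring 0.13, adjusted p = 0.0235). Of the 22 sialylation and ganglioside genes in the fit, 10 rose and 8 fell over the span, again near the shares of all genes (41.5% and 35.1%), with a median of 0.091. Nanp, which makes free sialic acid, rose by 1.43. St8sia6, an alpha-2,8 sialyltransferase, fell by 4.02 (SE 0.094, 16.2-fold, adjusted p = 7.94e-10), St8sia4, a polysialyltransferase, by 1.86, and the lactosylceramide synthase B4galt5 by 1.01.

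Fatty acid synthesis, desaturation, elongation and activation supply the acyl chains of these lipids. Of 23 genes in the fit 14 rose and 4 fell over the span, with a median of 0.364, beside 41.5% higher, 35.1% lower and a median of 0.05 over all genes. Acsl6, an acyl-CoA synthetase known from red cells, had log2 intensities of 7.05, 6.92 and 6.72 at Pre MegE in KO, Het and WT cells, 8.95, 8.87 and 8.90 at Pre CFU-E, then 10.18, 10.24 and 10.31 at CFU-E, and rose by 3.34 (SE 0.078, adjusted p = 7.45e-10). The desaturase family member Fads3 rose by 2.92 and the stearoyl-CoA desaturase Scd1 by 2.45, both mainly at the second step. Its paralog Scd2 fell by 0.90, the elongase Elovl7 by 1.57 and the dehydratase family member Hacd4 by 2.06.

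Across all lists together, with the 8 genes left out and genes of several lists counted once, 128 of 175 genes entered the fit and 109 of them were called over the span, 60 higher and 49 lower. That is 85.2%, against 76.6% of all genes. At the first step 49 rose and 42 fell (71.1%, against 66.3% of all genes, 37.1% higher and 29.3% lower), and at the second 24 rose and 44 fell (53.1%, against 44% of all genes, 18.7% higher and 25.3% lower). The second-step split was 34 higher and 38 lower once arrays were centred on their medians. Over the span 13 rose and 22 fell by at least 2-fold, beside 559 higher and 1042 lower by that size among all 10701 genes. The 7 increases described above were thus set among lipid genes that moved in both directions.

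The genes with the most similar profile over the 11 arrays were sought among 11137 genes, by the root mean square gap between log2 values after each gene was set to 0 at its Pre MegE mean. The 2 DC arrays enter this measure beside the stages, and all genes share the same arrays, so it only describes shape. Mboat2 ran closest to Rhd, a subunit of the Rh complex (gap 0.19), and Cldn13 (0.212), and the same genes came nearest to Tlcd4, at 0.634 and 0.564. Sphk1 ran closest to the copper transporter Atp7b (0.16) and then Asb17 (0.408). Plpp1 had Sh2d4a (0.347) and Pkhd1l1 (0.451) as neighbours, and Paqr9 had Acsl6 (0.386) and Sh2d4a (0.401). Sec14l2 lay near Btnl10 (0.227) and Epb42, the red cell membrane protein 4.2 (0.248), and St3gal6 near Tmem120b (0.338) and Evi5 (0.35). Mfsd2b lay nearest to Ltf (0.212) and Mpo (0.26), which encode granule proteins of granulocytes and decreased by 1.10 and 1.18 over the span. For Mfsd2b the DC arrays carried most of the distance from Pre MegE. Its mean was 12.79 at Pre MegE and 11.79 at CFU-E, while it read 7.40 in KO DC and 7.52 in WT DC. Mpo likewise read 12.42 to 12.61 at Pre MegE and 7.03 to 7.14 in DC.

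Genotype was tested in the same limma fit, with stage as a term, and this contrast was not used to group the genes. Between KO and WT progenitors 0 of the 8 genes were called, against 0.14% of all genes (15 of 10701), and 0 of 8 had an unadjusted p under 0.05. Differences ran from -0.10 to 0.15 with SEs of 0.049 to 0.14 (limma adjusted p from 0.971 to 0.999), and 2 SEs on either side spanned -0.29 to 0.35. Differences of that size could not be told from 0 with these arrays. Between Het and WT 0 of 8 were called, against 0.0374% of all genes (differences -0.14 to 0.12, adjusted p from 0.969 to 0.997), and between KO and Het 0 of 8, against 0% of all genes (differences -0.07 to 0.21, adjusted p = 1). Both comparisons had 0 of 8 at an unadjusted p under 0.05.

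Whether the change over the stages itself differed in KO was tested with a term for KO times stage. None of the 8 was called by limma, against 0% of all genes, and 2 of 8 had an unadjusted p under 0.05, as did 655 of 10701 genes. St3gal6 had a KO increase smaller by 0.46 than the mean of Het and WT (SE 0.12, unadjusted p = 0.0056, adjusted p = 0.742), as its CFU-E values of 10.02 in KO, 10.40 in Het and 10.33 in WT show. Mboat2 had a difference of -0.34 (SE 0.15, unadjusted p = 0.0497), which came with the highest Pre MegE value in KO. The 8 differences ran from -0.46 to 0.18, 7 of them below 0, beside a median of -0.006 over all genes. The share of all genes below 0 was not counted and the 8 genes share the same arrays, so nothing is read from that count. Those of Mboat2, Plpp1, Sphk1, Paqr9 and Sec14l2 changed sign when some single arrays were left out.

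CD4+ DC, a cell type of another lineage and organ, give a level outside the erythroid path. The progenitor values entered the grouping of the genes, and Tlcd4, Mboat2, Plpp1, Mfsd2b and Sec14l2 lay below the array median in both DC arrays, so they entered the fit over 11 arrays through progenitors alone. The DC values are therefore a description with no test. Against the mean of the 3 progenitor stages 7 of the 8 genes passed the limma threshold as lower in DC, beside 64.6% of 11560 genes called lower, 25.3% called higher and 89.9% called in either direction, and nothing is read from that count. The median difference over all genes was -0.59, and -0.117 after quantile normalization, where 5591 were called lower and 4593 higher instead of 7463 and 2928. Lineage, organ and preparation differ between these groups and cannot be told apart.

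Tlcd4 read 4.82 in KO DC and 4.69 in WT DC, against 6.91 to 12.44 in progenitors, a difference of -5.30 from the mean of the stages. Mfsd2b read 7.40 in KO DC and 7.52 in WT DC, against 11.71 to 12.85 in progenitors (-4.78, 27.5-fold lower). Mfsd2b, the gene that decreased during erythroid maturation, thus still stood far above its DC level at CFU-E. Mboat2 read 5.76 in KO DC and 6.08 in WT DC, against 7.32 to 11.53 in progenitors (-3.95). Sphk1 read 7.82 in KO DC and 7.52 in WT DC, against 8.48 to 12.08 in progenitors (-3.00). For each of these 4 genes, and for Sec14l2 below, every DC value lay below every progenitor value, the Pre MegE values included. The share of all genes for which this holds was not counted, so nothing is read from it.

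The other genes were closer to the progenitor range. Plpp1 read 6.49 in KO DC and 6.76 in WT DC, against 6.69 to 10.53 in progenitors (-1.71). Paqr9 read 7.70 in KO DC and 8.24 in WT DC, against 7.44 to 11.41 (-1.57). Plpp1 and Paqr9 in DC overlapped their values at Pre MegE, so their differences come from the later stages. Sec14l2 read 7.56 in KO DC and 7.40 in WT DC, just below all its progenitor values of 7.79 to 10.01 (-1.12).

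St3gal6 was the 1 gene whose DC level lay between stages. It read 8.64 in KO DC and 8.37 in WT DC, above all its Pre MegE and Pre CFU-E values and below all its CFU-E values, with a difference of -0.18 from the mean of the stages. That difference was -0.37 when the KO DC array was left out and 0.31 after quantile normalization.

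Between KO and WT DC, a comparison of 2 arrays with no replicate check, differences of the 8 genes ran from -0.54 for Paqr9 to 0.30 for Sphk1. Of the 3 genes at or above the array median on at least 1 of the DC arrays, Sphk1 (in KO only), Paqr9 and St3gal6, 0 differed by 2-fold or more, against 0.313% of 10554 genes. Zbtb46 itself read 8.02 in KO DC and 9.67 in WT DC.

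**Figure D5:**
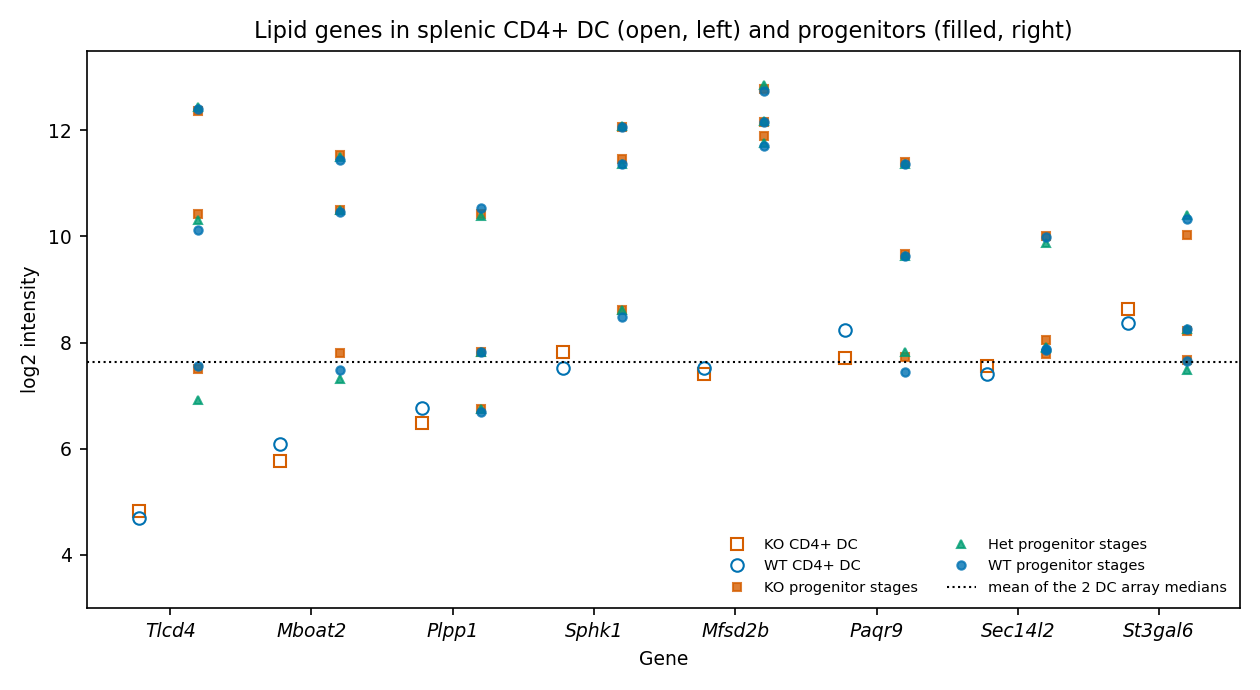
Log2 intensity of the 8 lipid genes in CD4+ DC (open symbols, left, KO and WT) and in the 9 progenitor arrays (filled symbols, right), with 1 point per array. Tlcd4 at 4.69 and 4.82 lies lowest in DC, and St3gal6 at 8.37 and 8.64 lies within its progenitor range.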

How the data were processed

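The authors deposited linear intensities for each probe set, made with RMA, per the submitters' processing notes, which name no version. RNA was labelled with the Ambion/Affymetrix WT Expression Kit, per the labels' protocols. Of 29674 probe sets, 21780 had 1 gene symbol, 1618 several and 6276 none listed. Where a gene had several probe sets (996 genes), that of highest mean was taken. Log2 values were taken without further scaling. Genes at or above the array median on at least 2 arrays of a fit were tested, 10701 over 9 and 11560 over 11 arrays. All 8 lipid genes passed in both. In the 9-array fit Tlcd4, Plpp1 and St3gal6 passed only through their later stages. Mboat2 and Paqr9 reached the median on 1 Pre MegE array each, so they too needed their later stages. In the 11-array fit 5 passed only through progenitors, and Sphk1, at the median on 1 DC array, needed them too.

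Tests used limma 3.58.1 in R 4.3.3 (stage and genotype, 4 residual degrees of freedom, median residual SD 0.0705), two-sided, with Benjamini-Hochberg adjustment over all genes of a fit, and were tested on simulated data. The KO stage term scored stages -1, 0 and 1. SDs given with steps are over the 3 genotypes. The number of arrays limits the precision. Alternatives were scaling, the filter, an intensity trend, the genotype term and arrays left out. The members and lists were chosen with earlier results of these data known. Named list genes were up to 3 called rises and 3 called falls per list, the largest over the span with 1 sign in all genotypes, plus relatives of the members. Promoter sequences and gene positions are from RefSeq, GRCm38.p6. No protein sequences were used here.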

Additional observations from a re-analysis of the deposited data

How the results depend on the processing

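Over 432 alternative stage values of the 8 lipid genes (scaling, filter, intensity trend, genotype term, arrays or genotypes left out), 3 had another sign, 406 moved by less than 1 SD and 26 by more. All 3 sign changes were of the first step of Sec14l2, which lay near 0 (-0.08) and was 0.0044 after median centring, 0.021 after quantile normalization and 0.0011 without all KO arrays. Of 352 alternative values of the genotype and DC comparisons, 13 changed sign. After quantile normalization 1 of the 8, St3gal6, was past the limma threshold as higher in DC (0.31, adjusted p = 0.0434). Without that normalization its difference stayed below 0 with any 1 array left out, from -0.37 to -0.00039. The other sign changes came from leaving out 1 array and none was called: KO minus WT ran from -0.061 to 0.227 for Tlcd4, -0.058 to 0.031 for Plpp1, -0.018 to 0.104 for Sec14l2 and -0.205 to 0.024 for St3gal6, and the KO rise minus the rise of Het and WT from -0.757 to 0.085 for Mboat2, -0.146 to 0.0032 for Plpp1, -0.205 to 0.075 for Sphk1, -0.230 to 0.130 for Paqr9 and -0.487 to 0.333 for Sec14l2. The cause was not tested. Counts of called lipid list genes stayed within 1.5 times under every alternative run. Over all genes, median centring gave 5045 higher and 2522 lower at the first step (otherwise 3965 and 3134), 2499 and 2309 at the second (otherwise 2004 and 2708), and 5696 and 3085 over the span (otherwise 4443 and 3759). At the second step quantile normalization gave 2603 higher and 2395 lower. No other probe set of a member could be tried, since each has 1. Stages were compared within genotypes through the genotype term. Without it 60 list genes rose and 51 fell over the span, instead of 60 and 49. Signals below the array median, as for Tlcd4, Plpp1 and St3gal6 at Pre MegE, limit how well a fold is known.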

Other observations

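In CD4+ DC the lipid lists were compared with progenitors, read against 25.3% of all genes called higher and 64.6% called lower. Of 23 fatty acid genes 4 were higher and 18 lower in DC, with a median of -1.241. Of 38 glycerophospholipid genes 11 were higher and 22 lower, with a median of -0.402, and of 34 sphingolipid genes 9 were higher and 20 lower, with a median of -0.728. Of 25 sialylation genes 12 were higher and 12 lower, with a median of -0.126. The median over all genes was -0.59. St8sia6, which fell most among the sialylation genes from Pre MegE to CFU-E, read 11.88 in KO DC and 11.84 in WT DC, against 6.62 to 6.87 at CFU-E. Spns3 read 11.26 in KO DC and 11.38 in WT DC, against 8.11 to 8.18 at CFU-E. These 2 genes were chosen here after their DC values were seen.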
